A study of Ovis aries with 115 samples.

Results

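ATP8A2 (identifier ENSOARG00000013009) is 1 of the 27054 genes counted in the cervix of 114 ewes, and it is described here in every breed, cycle and phase. The gene was chosen by name because earlier results of these data had placed it among the genes lower in Fur than in Suffolk ewes at the synchronised follicular phase. Values of Fur and Suffolk ewes in that state are therefore a description and carry no test.

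ATP8A2 belongs to the P4-ATPases, membrane pumps that use ATP to move aminophospholipids, above all phosphatidylserine, from the outer to the inner face of a membrane. Such flippases work as a complex with a small beta subunit of the CDC50 family, which TMEM30 genes encode, and scramblases undo the asymmetry they build. ATP8A2 is best known from neurons and photoreceptors, and phosphatidylserine exposed on the outer face is a signal by which cells are cleared.

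RNA came from the mid-cervix of multiparous ewes, taken post mortem, with 1 library per ewe. Suffolk (low fertility after cervical insemination with frozen-thawed semen) and Belclare (medium) ewes were sampled in Ireland, and Fur and Norwegian White Sheep (NWS; both high) in Norway, so that a difference between an Irish and a Norwegian breed may be one of breed or of country, which cannot be told apart here. The synchronised follicular ewes, labelled induced, received progestagen sponges of flugestone acetate and then equine chorionic gonadotropin, and the labels give the synchronised luteal ewes the same induced cycle. The natural follicular ewes are labelled as being in a natural cycle. Group sizes for the synchronised follicular, natural follicular and synchronised luteal states were 11, 8 and 10 in Suffolk, 10, 10 and 10 in Belclare, 8, 10 and 9 in Fur, and 10, 10 and 8 in NWS. One more library, whose title and other labels name different states, was left out of every group.

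Total counts per library ranged from 12238996 to 31261671 (median 17835128.5), and ATP8A2 had 11 to 1098 read pairs per ewe (median 143.5). Counting error alone therefore amounts to a coefficient of variation of 30.2% at the lowest count and of 8.35% at the median count. Levels are given in CPM, read counts relative to library size, without TMM scaling. Log2 CPM, and the correlations, marker sums and covariates below, rest on the same unscaled values. The edgeR fits scaled libraries by the TMM method, with factors from 0.690 (NWS natural follicular replicate 5) to 1.18 (NWS synchronised luteal replicate 2). In NWS natural follicular replicates 4 and 10 the mitochondrial gene COX-1 stood at 36.3 and 31.5 CPM, inside the range of Fur (26.1 to 50.7 CPM) and far below the other NWS ewes, so these libraries went against their breed label. Replicates 1, 5 and 6 of that group lay between, at 765, 1017 and 933 CPM, below every NWS ewe of the other states. ATP8A2 in these 5 libraries ranged from 2.28 to 17.6 CPM, and the called differences of that group from Suffolk and from Belclare are given with and without them. Over all genes, 4 libraries, 1 of them also among these 5, were least like the rest of their group: Suffolk natural follicular replicate 4, NWS natural follicular replicate 5, NWS synchronised follicular replicate 9 and Belclare synchronised follicular replicate 2. As for the labelled tissue, the epithelial and mucin genes CDH1, CLDN3, CLDN4, CLDN7, MUC1, MUC5AC, MUC5B and MUC16 had counts in all 114 ewes, as had the smooth muscle genes ACTG2 and DES.

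ATP8A2 was most abundant in Irish ewes and varied widely among ewes of one group. In synchronised follicular ewes the lowest, median and highest levels were 6.51, 22.8 and 54.1 CPM in Suffolk. They were 7.40, 17.5 and 61.0 CPM in Belclare. The Norwegian breeds lay lower, with 2.03, 5.63 and 9.21 CPM in Fur and 1.54, 4.52 and 28.9 CPM in NWS. In Suffolk, 10 of 11 ewes were above the highest Fur ewe, and 6 of 8 Fur ewes were below the lowest Suffolk ewe.

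In natural follicular ewes the groups overlapped more. Suffolk ran from 0.821 through a median of 15.1 to 44.2 CPM, the widest span of the 12 groups, with the highest ewe 53.8 times the lowest. Belclare ran from 2.28 through 13.5 to 34.2 CPM. Fur ran from 4.46 through 8.33 to 26.9 CPM, and NWS from 2.28 through 4.72 to 17.6 CPM. No Norwegian ewe was below the lowest Irish ewe of this state, while 18 of 20 Norwegian ewes were below the Irish median.

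In synchronised luteal ewes Fur had the lowest median of the 12 groups, from 1.35 through 3.44 to 5.79 CPM. NWS ran from 2.17 through 4.28 to 19.5 CPM. Suffolk ran from 1.77 through 9.58 to 25.3 CPM, and Belclare from 2.58 through 16.4 to 40.3 CPM. Of 10 Belclare ewes, 5 lay above the highest NWS ewe and 8 above the highest Fur ewe.

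**Figure D1:**
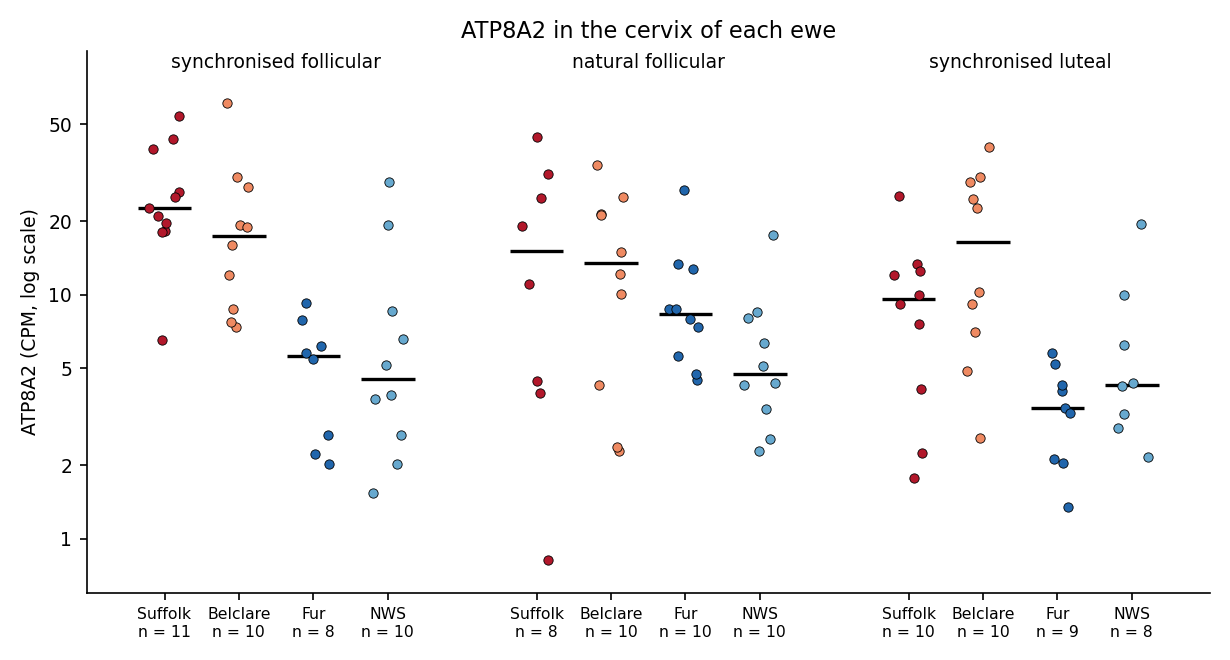
ATP8A2 in CPM (log scale) for each of 114 ewes, grouped by state and breed, with 1 point per ewe and a line at the group median. Suffolk and Belclare medians lie between 9.58 and 22.8 CPM, Fur and NWS medians between 3.44 and 8.33 CPM, and the points of neighbouring groups overlap.

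Ordered by mean ± SD, the groups ran from Suffolk synchronised follicular (26.8 ± 13.6 CPM, n = 11) through Belclare synchronised follicular (20.9 ± 16.2, n = 10), Belclare synchronised luteal (18.1 ± 12.9, n = 10), Suffolk natural follicular (17.5 ± 15.3, n = 8) and Belclare natural follicular (14.8 ± 10.6, n = 10). Fur natural follicular (10.1 ± 6.65, n = 10), Suffolk synchronised luteal (9.81 ± 6.87, n = 10), NWS synchronised follicular (8.23 ± 8.92, n = 10), NWS synchronised luteal (6.56 ± 5.77, n = 8) and NWS natural follicular (6.24 ± 4.51, n = 10) followed. Fur synchronised follicular (5.17 ± 2.67, n = 8) and Fur synchronised luteal (3.50 ± 1.49, n = 9) came last. Neighbours in this order differed by less than the smaller of their SDs, except the last pair, whose means were 1.67 CPM apart.

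Across all ewes, 43 of 59 Irish and 14 of 55 Norwegian ewes lay above the overall median of 7.98 CPM. Without the synchronised follicular ewes the counts were 25 of 38 and 10 of 37. A level above 20 CPM was seen in 23 Irish and 2 Norwegian ewes, and without the synchronised follicular ewes in 13 and 1. Breed accounted for 23.8% of the sum of squares of log2 CPM of ATP8A2, against 10.6% for the median gene tested, and state for 4.29%, against 12.2%. These shares include the Fur and Suffolk synchronised follicular ewes that chose the gene, so the larger breed share is a description and not independent evidence. The 12 groups together accounted for 37.0%, against 35.9%, so that most of the variation lay among ewes of one breed and state. The SD within groups was 1.12 on the log2 scale, larger than that of 94.8% of the 15649 genes tested (median gene 0.40).

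The first question was whether the breeds differed outside the state in which the gene was chosen. All groups entered 1 fit of edgeR's quasi-likelihood test, with Benjamini-Hochberg adjustment over the 15649 genes, and a differentially expressed gene (DEG) had an adjusted p below 0.05 and a fold change (FC) above 1.5. Several of the comparisons share the ewes of a group and are not independent of each other.

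In the synchronised luteal phase ATP8A2 was lower in 3 of the 4 comparisons of a Norwegian with an Irish breed. Compared to Belclare, Fur had a log2 fold change of -2.42 (SE 0.51, edgeR adjusted p = 0.000121), in a comparison in which 17.4% of genes were DEGs. Compared to Suffolk, Fur had a log2 fold change of -1.55 (SE 0.50, edgeR adjusted p = 0.0128), with 14.7% of genes called. Every one of the 9 luteal Fur ewes was below the median of Suffolk and of Belclare.

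Luteal NWS ewes were lower than Belclare, with a log2 fold change of -1.49 (SE 0.51, edgeR adjusted p = 0.0250, 13.2% of genes called). Compared to Suffolk the value was -0.62 (95% interval -1.62 to 0.38, edgeR adjusted p = 0.454, 4.19% of genes called), which did not pass. Belclare against Suffolk gave 0.86 (interval -0.06 to 1.79, edgeR adjusted p = 0.233, 6.92% called), and NWS against Fur 0.93 (interval -0.10 to 1.96, edgeR adjusted p = 0.606, 0.160% called). These last intervals reach to differences of more than the FC threshold, so the breeds within each country are not shown to be alike.

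At the natural follicular phase it was NWS that passed. Compared to Suffolk, the log2 fold change was -1.43 (SE 0.50, edgeR adjusted p = 0.0334, 9.13% of genes called), and compared to Belclare -1.22 (SE 0.47, edgeR adjusted p = 0.0390, 15.1% called). Without replicates 4 and 10 the log2 fold changes were -1.42 and -1.21 and the edgeR adjusted p-values 0.0579 and 0.0651. Without all 5 libraries of low COX-1 they were -1.80 and -1.59, with edgeR adjusted p-values of 0.0745 and 0.0700. Without the 4 libraries least like their group they were -1.21 and -1.15, with edgeR adjusted p-values of 0.101 and 0.0605. The direction was the same without any of these sets of libraries, but neither comparison was then called.

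Fur at the natural follicular phase was not called: the log2 fold change was -0.83 against Suffolk (interval -1.80 to 0.14, edgeR adjusted p = 0.214, 11.4% of genes called) and -0.62 against Belclare (interval -1.54 to 0.31, edgeR adjusted p = 0.314, 14.9% called). Belclare against Suffolk gave -0.21 (interval -1.18 to 0.76, edgeR adjusted p = 0.893, 0.435% called) and NWS against Fur -0.60 (interval -1.53 to 0.33, edgeR adjusted p = 0.547, 0.709% called). Without the 5 libraries of low COX-1 the last value was -0.97 (edgeR adjusted p = 0.863). With each ewe left out in turn, Fur against Suffolk stayed uncalled in 18 of 18 fits of these groups alone, between -1.14 and -0.47, and the luteal difference stayed called in 19 of 19 fits, between -1.68 and -1.25.

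Averaged over the breeds of each country, Norwegian ewes were lower than Irish ewes by a log2 fold change of -1.02 at the natural follicular phase (SE 0.34, edgeR adjusted p = 0.0111, 14.2% of genes called) and of -1.52 in the luteal phase (SE 0.36, edgeR adjusted p = 0.000380, 12.9% called). With the smooth muscle covariate described further on, neither was called, at 0.047 (edgeR adjusted p = 0.950) and -0.87 (edgeR adjusted p = 0.0730). With the epithelial covariate the natural follicular value was -0.34 (edgeR adjusted p = 0.521), not called. The natural follicular average kept its call in 9 of 11 alternatives. Among these 9 were both fits without libraries of low COX-1. These averages were added after the data had been seen. The change of this difference from the luteal to the natural follicular phase was 0.50 (interval -0.47 to 1.46, edgeR adjusted p = 0.707, 0.243% of genes called), so a difference between the states was not detected.

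In synchronised follicular ewes, only NWS against Belclare was free of the ewes that chose the gene, and ATP8A2 was lower in NWS (log2 fold change -1.36, SE 0.47, edgeR adjusted p = 0.0180, 17.4% of genes called). This call was lost with the smooth muscle covariate (-0.20, SE 0.51, edgeR adjusted p = 0.846) and with the epithelial covariate (-0.69, SE 0.47, edgeR adjusted p = 0.343). Described without a test, the log2 fold change was -2.42 (SE 0.53) for Fur against Suffolk, where 12.8% of genes were DEGs. It was -1.76 (SE 0.47) for NWS against Suffolk (18.7% of genes DEGs) and -2.02 (SE 0.52) for Fur against Belclare (10.4%). Within the countries it was -0.39 (SE 0.45) for Belclare against Suffolk (0.109%) and 0.66 (SE 0.51) for NWS against Fur (0.0831%).

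The second question was whether ATP8A2 changed with the phase or with synchronisation. Fur ewes had more ATP8A2 at the natural follicular than at the synchronised luteal phase, by a log2 fold change of 1.69 (SE 0.50, edgeR adjusted p = 0.00642), where 17.5% of genes were DEGs. All 10 natural follicular Fur ewes lay above the luteal median and all 9 luteal ewes below the natural follicular median. In Suffolk the value was 0.96 (interval -0.01 to 1.94, edgeR adjusted p = 0.124, 16.8% called), in NWS 0.16 (interval -0.84 to 1.15, edgeR adjusted p = 0.848, 13.8% called; -0.22 without the 5 libraries of low COX-1) and in Belclare -0.12 (interval -1.03 to 0.80, edgeR adjusted p = 0.863, 21.0% called).

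Whether Fur differed from the other breeds in this step was tested by interactions. The step was larger in Fur than in Suffolk by 0.73 (interval -0.65 to 2.11, edgeR adjusted p = 0.632, 1.07% of genes called). Against Belclare it was larger by 1.80 (interval 0.46 to 3.15, edgeR adjusted p = 0.394, 0.0767% called), and NWS minus Fur was -1.53 (interval -2.92 to -0.14, edgeR adjusted p = 0.991, 0.0192% called). NWS minus Suffolk, also added later, was -0.81 (interval -2.19 to 0.58, edgeR adjusted p = 0.731, 0.0383% called). No interaction passed the adjusted threshold, so the rise is not shown to be particular to Fur.

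**Figure D2:**
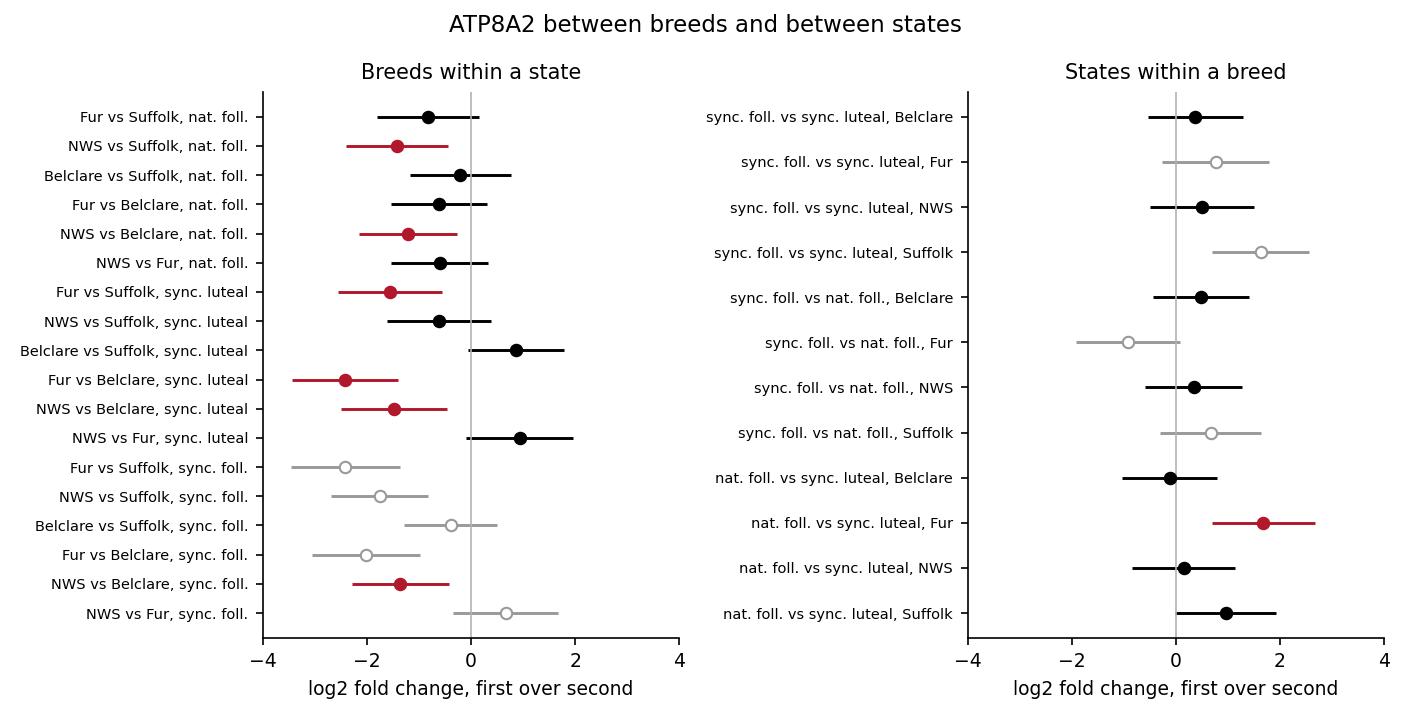
Log2 fold change of ATP8A2, the first group over the second, between breeds within a state (left) and between states within a breed (right), with 95% intervals. Red marks DEGs, black other tested comparisons, and open grey points those described without a test because they hold the ewes that chose the gene. The called breed differences lie between -2.42 and -1.22, and the called difference between states is that of Fur, at 1.69.

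The synchronised follicular and luteal phases differed by a log2 fold change of 0.38 in Belclare (interval -0.54 to 1.29, edgeR adjusted p = 0.536, 24.4% of genes called) and of 0.50 in NWS (interval -0.50 to 1.499, edgeR adjusted p = 0.442, 22.8% called). In Suffolk, described only, the value was 1.63 (SE 0.47, 18.2% of genes DEGs), and 10 of 11 follicular ewes lay above the luteal median. In Fur it was 0.77 (SE 0.52, 23.5% of genes DEGs). Synchronised against natural follicular ewes gave 0.49 in Belclare (interval -0.43 to 1.41, edgeR adjusted p = 1, 0.0128% called) and 0.35 in NWS (interval -0.59 to 1.28, edgeR adjusted p = 0.738, 0.511% called). Without the 5 libraries of low COX-1 the NWS value was 0.72 (edgeR adjusted p = 0.540). The described values were 0.67 (SE 0.49, 0.0383% of genes DEGs) in Suffolk and -0.92 (SE 0.51, 2.51%) in Fur, where the mean was higher in the natural cycle.

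The rest of the flippase machinery was read from a list of flippases, their beta subunits, scramblases, lipid exporters and other P-type ATPases. Of that list, 15 identifiers besides ATP8A2 could be paired with a name and passed the low count filter, and ATP2B4 has 2 of them. The names come from the study's lists of genes that differ between breeds, for a large part those higher in Suffolk than in Fur, so the direction of these members is not independent evidence. In the tested comparisons of a Norwegian with an Irish breed, 0 of the 15 were called higher in the Norwegian breed (edgeR). In luteal Fur against Belclare 7 were lower and 0 higher, where 17.4% of all genes were called, with a median log2 fold change of -0.57 against -0.01 over all genes. In natural follicular NWS against Belclare 9 were lower (median -0.71 against 0.03, 15.1% of all genes called), and in luteal NWS against Suffolk 1 was (4.19% called).

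ATP11A, another P4-ATPase, had means from 58.1 CPM in NWS natural follicular ewes to 128 CPM in Belclare luteal ewes. It was lower in luteal Fur than in Belclare (log2 fold change -0.94, SE 0.21, edgeR adjusted p = 0.000219) and than in Suffolk (-0.78, SE 0.21, edgeR adjusted p = 0.00243). At the natural follicular phase it was also lower in Fur than in Suffolk (-0.68, SE 0.21, edgeR adjusted p = 0.0130), where ATP8A2 was not called.

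TMEM30B encodes a flippase beta subunit and was the only TMEM30 gene that could be read here. Whether it pairs with ATP8A2 in the cervix was not measured. Means of TMEM30B ranged from 11.7 CPM in NWS synchronised follicular to 25.6 CPM in Belclare luteal ewes. In luteal Fur ewes it was lower than in Belclare (log2 fold change -0.99, SE 0.21, edgeR adjusted p = 8.6e-05) and than in Suffolk (-0.71, SE 0.21, edgeR adjusted p = 0.00529). The differences of ATP8A2 in the same comparisons, -2.42 and -1.55, were larger and had larger standard errors.

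The scramblases did not follow one pattern. PLSCR1 was lower in luteal Fur than in Belclare (log2 fold change -0.65, SE 0.20, edgeR adjusted p = 0.00876), whereas PLSCR4 gave 0.48 (SE 0.16, edgeR adjusted p = 0.0155), below the FC threshold. XKR8, a scramblase that apoptotic caspases activate, gave -0.40 there (SE 0.14, edgeR adjusted p = 0.0188), also below the FC threshold. Between the natural follicular and luteal phase of Fur none of ATP11A, TMEM30B, PLSCR1, PLSCR4 and XKR8 was called, with log2 fold changes from -0.23 to 0.48.

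In that step 3 of the 15 identifiers were called higher and 1 lower, where 17.5% of all genes were called. ATP12A, a proton and potassium pump, was higher in natural follicular than in luteal Fur ewes (log2 fold change 2.604, SE 0.68, edgeR adjusted p = 0.00178), and so was ATP7B, a copper pump (1.05, SE 0.23, edgeR adjusted p = 0.000241). ABCG1, a cholesterol exporter, was higher (1.33, SE 0.36, edgeR adjusted p = 0.00277).

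The genes most like ATP8A2 from ewe to ewe were found by the correlation of log2 CPM after each group's mean had been subtracted, over 114 ewes. The highest among named genes was ELOVL2, which lengthens polyunsaturated fatty acids (Pearson r = 0.72, Spearman rho = 0.69, and r = 0.69 without the 2 ewes farthest from the median of ATP8A2). CLDN10, a claudin of tight junctions, had r = 0.72 (rho = 0.67), and SLC11A2, an iron transporter, r = 0.72 (rho = 0.69). The SLC11A2 values are those of identifier ENSOARG00000017456. Another identifier of that name differed in level, at 118 against 1317 CPM in Belclare synchronised follicular replicate 6, and its r is not given. CELF2, an RNA-binding regulator of splicing, had r = 0.71, ARNT2, a basic helix-loop-helix transcription factor, r = 0.71, and FBN2, a microfibril protein, r = 0.71. TRAF3IP2, an adaptor of interleukin-17 receptors, and PDE3B, a phosphodiesterase of cyclic AMP, had r = 0.70 each. Among the identifiers without a name, 4 ranked above the last of these 8, and by rank correlation only 2 of the 8 remained among the 8 highest, so the order within this set is not firm. All genes of a ewe share her tissue sample and library depth, which differ from ewe to ewe, and the values are a description.

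These genes were chosen over the same ewes, so their values within each country are a description. For ELOVL2, r was 0.77 over 59 Irish and 0.61 over 55 Norwegian ewes. For SLC11A2 the values were 0.77 and 0.63, and for CLDN10 0.77 and 0.63. ELOVL2 was near the floor in the Norwegian groups, with medians from 0.28 to 0.75 CPM, so its r there is less sure. Within single groups the likeness was less even: r with ELOVL2 ran from -0.07 to 0.88 over the 12 groups. The ewe with the most ATP8A2 was above the group median of ELOVL2 in 10 of 12 groups, and the ewe with the least in 4 of 12. Over the 8 genes these counts ran from 9 to 11 and from 0 to 4.

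ELOVL2 shows how far this went. In natural follicular Suffolk ewes it ran from 0.07 through 7.74 to 151 CPM, and the ewe with the least ATP8A2 also had the least ELOVL2. The ewe with the most ATP8A2 among natural follicular Fur ewes, at 26.9 CPM, had 12.2 CPM of ELOVL2, where the group median was 0.47 CPM. The exception among Suffolk ewes was the synchronised follicular ewe with the most ATP8A2, at 54.1 CPM, which had 0.46 CPM of ELOVL2 against a median of 3.64 CPM.

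OXTR, the oxytocin receptor, ranked 15th among named genes and was singled out after its value was seen (r = 0.67, rho = 0.66, 114 ewes). Its r was 0.77 over 59 Irish and 0.44 over 55 Norwegian ewes. In luteal Suffolk ewes its median was 1.06 CPM, and replicate 7, the ewe with the most ATP8A2, had 230 CPM. That was an extreme case: the ewe with the most ATP8A2 had 0.82 CPM of OXTR in luteal Belclare, 0.32 in Fur and 0.24 in NWS. Such a ewe was above the group median of OXTR in 11 of 12 groups, the exception being luteal Fur. Among the flippase genes, ATP11A had r = 0.49 (rho = 0.52) and TMEM30B r = 0.44 (rho = 0.48), while XKR8 had r = -0.05.

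At the other end stood A2M, a protease inhibitor (r = -0.54, rho = -0.50), HYAL1, a hyaluronidase (r = -0.48), KYAT1, a kynurenine aminotransferase (r = -0.47), and EVX1, a homeobox factor (r = -0.43). Another 359 identifiers without a name were lower than EVX1.

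**Figure D3:**
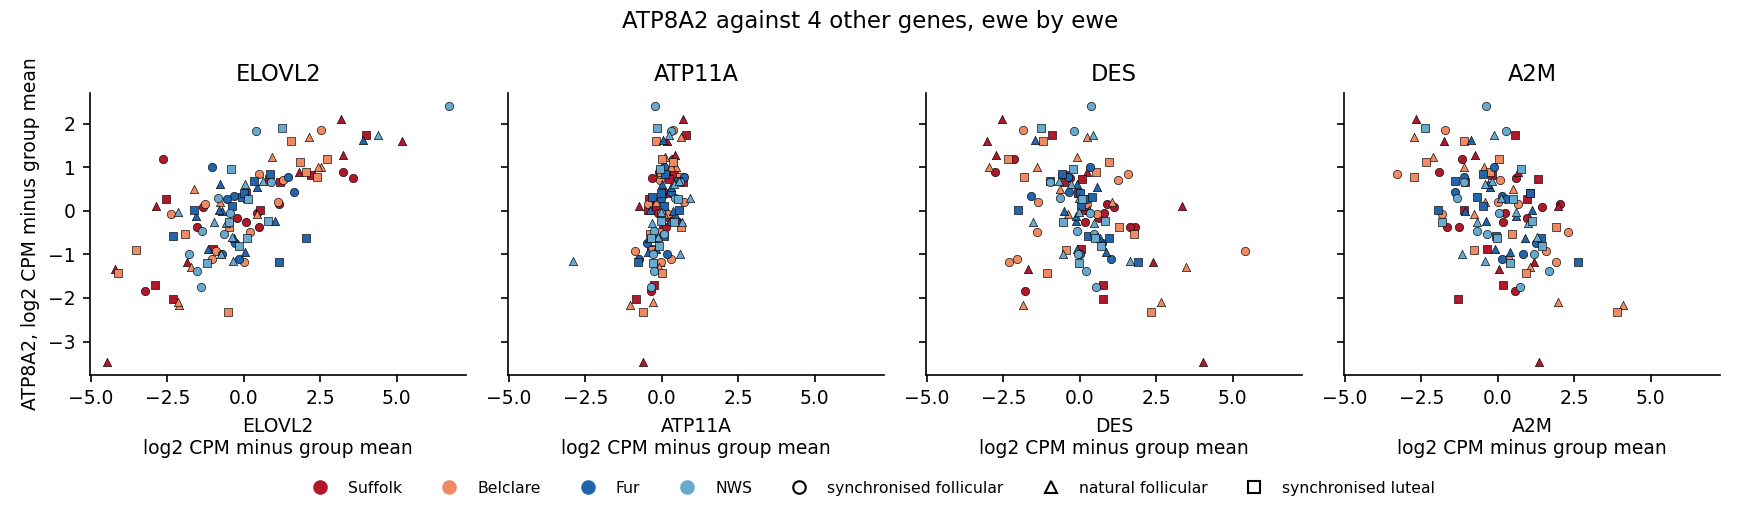
ATP8A2 against ELOVL2, ATP11A, DES and A2M, each as log2 CPM minus the group mean, with 1 point per ewe (114 ewes), coloured by breed and shaped by state. The points rise with ELOVL2 (r = 0.72) and ATP11A (r = 0.49) and fall with DES (r = -0.42) and A2M (r = -0.54).

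Over the 12 group means the named genes most like ATP8A2 were others: OXSM, an enzyme of mitochondrial fatty acid synthesis (r = 0.94), ATG7, an autophagy enzyme (r = 0.94), PPP1R14D, an inhibitor of protein phosphatase (r = 0.94), ACP5, an acid phosphatase (r = 0.93), SPTLC2, a subunit of serine palmitoyltransferase (r = 0.93), and NYNRIN (r = 0.92). From ewe to ewe within groups OXSM and ATG7 had r = 0.26 and 0.22. The group means include the Fur and Suffolk synchronised follicular ewes that chose ATP8A2. Names come from the study's lists of genes that differ between breeds, so high r over group means is a description and not independent evidence.

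Marker genes of tissue composition moved with ATP8A2. In bulk tissue, fewer cells of a type and less RNA per cell cannot be told apart. The markers used, like the flippase genes, have names only through the study's lists of genes that differ between breeds. Their gap between the countries is therefore a description and not independent evidence. The summed level of 5 smooth muscle markers (ACTC1, ACTG2, DES, PCP4 and POPDC2, of 10 listed) had group medians from 201 to 624 CPM in the Irish groups and from 2578 to 5675 CPM in the Norwegian groups. Single ewes ran from 29.6 to 11388 CPM in the Irish groups and from 655 to 15769 CPM in the Norwegian ones. PCP4 was at 0 counts in 7 ewes, POPDC2 in 8 and ACTC1 in 1, and ACTG2 and DES in none. Within groups the sum had r = -0.38 with ATP8A2 (rho = -0.35, 114 ewes), with -0.39 in Irish and -0.39 in Norwegian ewes.

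The sum of 5 secretory epithelial markers (MUC5AC, MUC5B, MUC16, WFDC2 and SCGB2A1, all that were listed) ran the other way. Its group medians were 1372 to 2969 CPM in Irish and 834 to 1244 CPM in Norwegian groups, and within groups r with ATP8A2 was 0.53 (rho = 0.57). Its members differed in sign, with r = 0.46 for MUC16, 0.29 for WFDC2, 0.19 for MUC5AC, -0.09 for SCGB2A1 and -0.26 for MUC5B. The sum of 7 general epithelial markers of 11 listed had medians of 1404 to 2056 CPM in Irish and 890 to 1135 CPM in Norwegian groups, with r = 0.27 (rho = 0.32). Both epithelial lists hold only markers named in the study's breed lists, so the higher Irish medians are not independent evidence. PAX8, a factor of Müllerian duct epithelium, had r = 0.54, and PAX2 had r = 0.38. SCGB2A1 was at 0 counts in 3 ewes and none of the other markers of these 2 epithelial lists was at 0 in any.

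The sums of other cell types had r nearer to 0, though the neuronal sum was close to the general epithelial sum (r = 0.27). The sums of 3 neuronal markers (SNAP25, SYT5 and TUBB3, of 7 listed), 4 markers of lymphocytes and dendritic cells, of 7 listed, and the single endothelial marker VWF had r = 0.24, 0.12 and 0.09 within groups. Members differed in sign, with r = 0.30 for SYT5, -0.01 for SNAP25 and -0.13 for TUBB3. In the lymphocyte and dendritic list r was 0.34 for CD80, 0.07 for CD27, 0.02 for FLT3 and -0.09 for PTPRCAP. Medians of the neuronal sum were between 14.0 and 31.3 CPM and overlapped between the countries. PI16, the only fibroblast marker with a name, had r = -0.13.

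**Figure D4:**
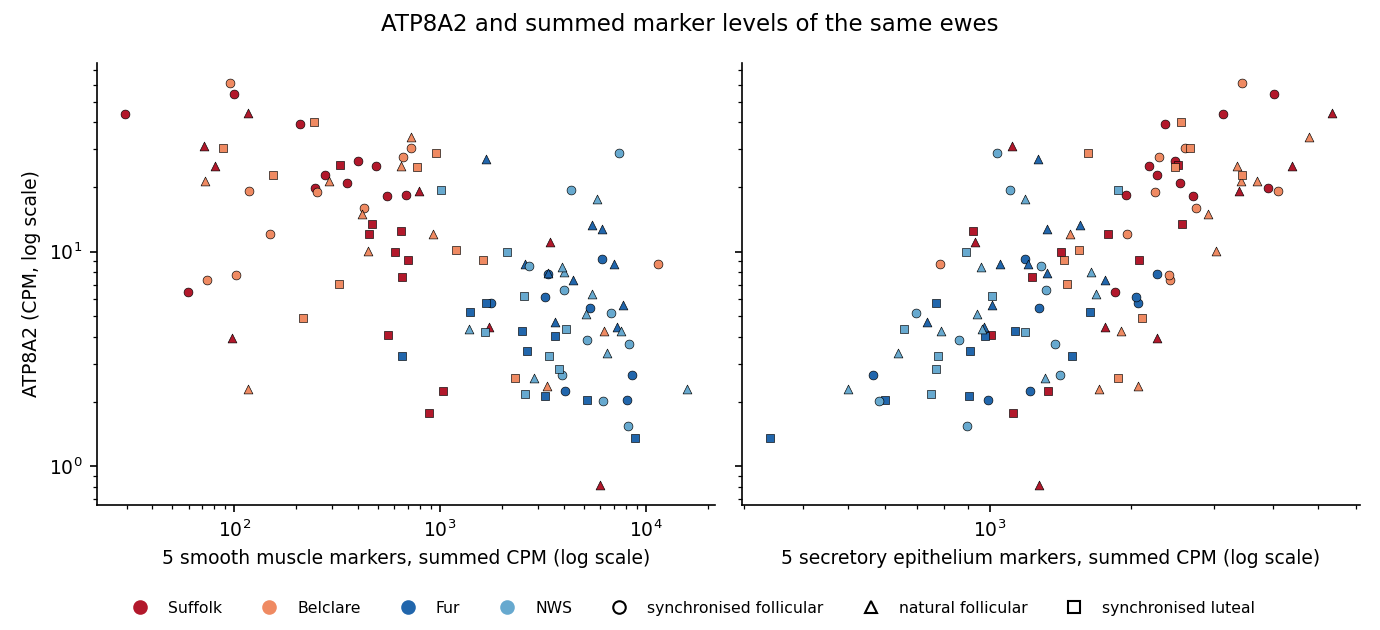
ATP8A2 in CPM against the summed CPM of 5 smooth muscle markers (left) and of 5 secretory epithelial markers (right), both axes on log scales, with 1 point per ewe. Norwegian ewes (blue) lie at 655 CPM or more of smooth muscle markers, and Irish ewes (red and orange) from 29.6 to 11388 CPM.

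With a smooth muscle covariate in the fit (ACTG2 and DES, log2 CPM averaged), most breed differences of ATP8A2 became smaller. Luteal Fur against Belclare stayed called at -1.69 (SE 0.50, edgeR adjusted p = 0.00946), and so did natural follicular against luteal Fur at 1.93 (SE 0.48, edgeR adjusted p = 0.000927). Luteal Fur against Suffolk fell to -0.90 and was no longer called (SE 0.50, edgeR adjusted p = 0.175). Natural follicular NWS gave -0.15 against Suffolk (SE 0.56, edgeR adjusted p = 0.914) and -0.26 against Belclare (SE 0.50, edgeR adjusted p = 0.785), and natural follicular Fur against Suffolk turned to 0.35 (SE 0.54, edgeR adjusted p = 0.670). The described synchronised follicular differences from Suffolk became -1.14 for Fur and -0.38 for NWS. ACTG2 and DES have names through the study's lists of genes that differ between breeds. A covariate of such genes differs between the countries, so smaller breed differences with it are not independent evidence. How much of the breed difference belongs to composition was not tested.

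With a covariate for epithelium, the mean log2 CPM of CDH1, CLDN3, CLDN4 and CLDN7, luteal Fur stayed lower than Belclare (-1.65, SE 0.52, edgeR adjusted p = 0.0171) and than Suffolk (-1.20, SE 0.49, edgeR adjusted p = 0.0484). Natural follicular against luteal Fur was 2.00 (SE 0.49, edgeR adjusted p = 0.000826). The 4 called differences of NWS from Irish breeds were not called with this covariate and lay between -0.86 and -0.48. The genes of this covariate have names through the same lists, so these smaller values are not independent evidence either.

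**Figure D5:**
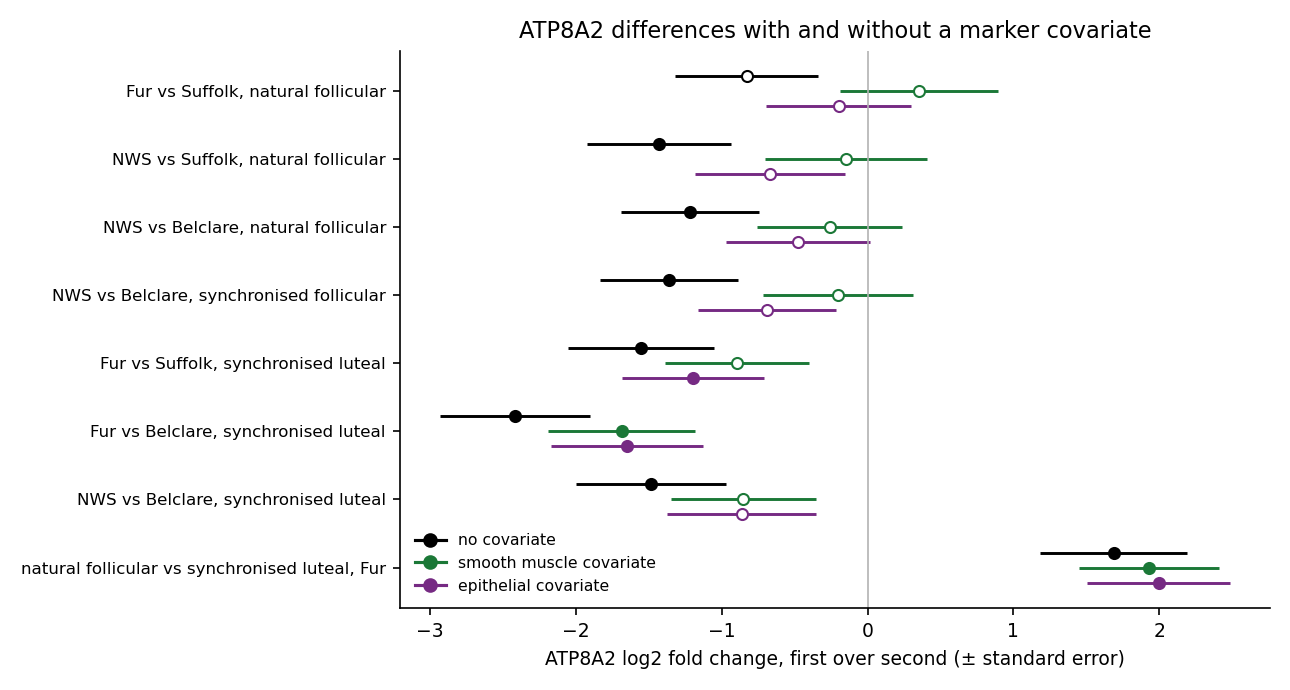
Log2 fold change of ATP8A2 ± standard error in 8 comparisons, without a covariate (black) and with the smooth muscle (green) or epithelial (purple) covariate, filled where called a DEG. Luteal Fur against Belclare and natural follicular against luteal Fur are filled in all 3 fits, and the breed differences at the natural follicular phase move toward 0.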

How the data were processed

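Cervical RNA of 115 ewes was measured by RNA-seq on libraries of a stranded mRNA kit. After trimming, the authors aligned reads with STAR (2.6.1b in the submitters' processing notes) to Oar_v3.1, kept pairs that mapped uniquely, counted them on protein coding genes with featureCounts (Subread 1.6.3 in those notes) and deposited raw counts for 27054 identifiers. Whether strand was used in counting is not given in the sources used here, so reads of overlapping antisense genes cannot be told apart. Reads of breeds that differ from the reference can be lost at the limit on mismatches.

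Groups follow the breed, cycle and phase of the labels (12 groups, 114 ewes). Genes with at least 1 CPM in at least 10 ewes were kept (15649 genes). The counts were fitted with edgeR 4.0.16 in R 4.3.3, with TMM, the quasi-likelihood test and Benjamini-Hochberg adjustment. The study's own median of ratios was tried as an alternative. The Wald test of DESeq2 1.42.0 was another. Of 37 comparisons, 28 were tested, 5 of them added after seeing the data, and 9 that hold the Fur or Suffolk synchronised follicular ewes were described. Intervals are 95% intervals of the log2 fold change. Log2 CPM has a prior count of 2 and no TMM scaling.

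The gene, the lists of flippase genes and markers, and the tests were chosen with earlier results of these data known. Named genes are ATP8A2, the listed flippase genes and markers that have a name, and the 8 most and 4 least like ATP8A2 over ewes and 6 most like it over group means. Names come from the study's supplementary lists (1352 identifiers), and no coordinates are given because no genome of this build was used here. The libraries of each group were compared in pairs: chi-square per degree of freedom was at least 15.7 over 490 pairs, so none repeats another of its group. Libraries of different groups were not compared in this way. The labels do not say more of the ewes than breed, cycle and phase. Libraries were taken to be separate ewes on the labels' word. The fits were tested on simulated data. Results of 1 listed gene are not reported here.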

Additional observations from a re-analysis of the deposited data

Results flagged for a closer look

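In 5 of the 11 groups of 4 to 10 ewes, the highest ATP8A2 level in CPM stood apart from the others by more than Dixon's 95% critical value. On log2 CPM, a scale chosen after the data had been seen, 0 of the 11 did. There the gap of the highest ewe was 0.24 to 0.39 of the range in these 5 groups, where the critical value is 0.466 or 0.526. Chance flags about 1 in 20 groups where values follow a normal distribution. The highest ewes in CPM were Belclare synchronised follicular replicate 6 at 61.0 CPM (next 30.5), Fur natural follicular replicate 3 at 26.9 CPM (next 13.3), Suffolk synchronised luteal replicate 7 at 25.3 CPM (next 13.4), NWS synchronised luteal replicate 8 at 19.5 CPM (next 9.98) and NWS natural follicular replicate 6 at 17.6 CPM (next 8.49). The counts behind them were 320 to 1098 read pairs.

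The sum of smooth muscle markers was the lowest of the group in Suffolk synchronised luteal replicate 7 (326 CPM), in Fur natural follicular replicate 3 (1679 CPM) and in NWS synchronised luteal replicate 8 (1016 CPM). In NWS natural follicular replicate 6, one of the libraries of low COX-1, it was 5791 CPM, above the group median of 5278 CPM. The part of composition in these levels was not tested.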

How the results depend on the processing

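Of 28 tested comparisons, all kept direction and side of the threshold with DESeq2 size factors, with the DESeq2 Wald test and with the filter on synchronised follicular ewes. Luteal Fur against Belclare (-2.44 to -1.65) and natural follicular against luteal Fur (1.64 to 2.00) stayed called under all 11 alternatives tried for each. Natural follicular NWS lost its call against Belclare without a low count filter (-1.23, edgeR adjusted p = 0.0503), and against Suffolk and Belclare when the contrast's groups were fitted alone (-1.45 and -1.24), without the libraries of COX-1 in the range of Fur (-1.42 and -1.21), without all 5 of low COX-1 (-1.80 and -1.59) and without the 4 libraries least like their group (-1.21 and -1.15). With the replicate block these values were -1.25 and -1.11 (edgeR adjusted p = 0.0861 and 0.0714), and the block changed no other call. Same-numbered ewes are different animals and did not deviate together (median correlation -0.01 over 590 pairs), so the numbers do not pair them.

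The smooth muscle covariate ended the calls of natural follicular NWS against Suffolk (-0.15) and Belclare (-0.26), synchronised follicular NWS against Belclare (-0.20), luteal Fur against Suffolk (-0.90), luteal NWS against Belclare (-0.85) and luteal Norwegian against Irish breeds (-0.87). It turned natural follicular Fur against Suffolk (0.35) and Belclare (0.24), Belclare against Suffolk (0.11), Norwegian against Irish breeds (0.047) and natural follicular against luteal Belclare (0.00295). The epithelial covariate ended natural follicular NWS against Suffolk (-0.67) and Belclare (-0.48), luteal (-0.86) and synchronised follicular (-0.69) NWS against Belclare and natural follicular Norwegian against Irish breeds (-0.34), and turned natural follicular against luteal Belclare (0.35). Small uncalled values of NWS also turned: natural follicular against luteal to -0.22 without 5 libraries of low COX-1, and synchronised against natural follicular to -0.16 without the 4 least like their group. The cause was not tested. Leaving out each ewe, Fur against Suffolk gave -1.14 to -0.47 at the natural follicular phase and -1.68 to -1.25 in the luteal phase. By rank correlation 2 of the 8 most like genes remained, and with a prior count of 0.5 all 8. Depth limits single ewes of low counts, whose counting error reaches 30.2%, while at the median count it is 8.35%.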

Other observations

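The ewe that was put in no group, whose title names a natural follicular Suffolk ewe and whose other labels name an induced luteal one, had 85 counts of ATP8A2 in 15387419, which is 5.52 CPM, also without TMM scaling.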
